A study of Homo sapiens with 42 samples.

Results

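Of the 20515 genes with a symbol in a table of RNA levels from HAP1 cells, 5 are described here: KCTD11, TMEM35A and NME3, which were higher, and FASTKD2 and RTL8B, which were lower, in every kind of NEIL knockout than in wild type (wt) when the cells were kept in media. They were chosen by that media result, so their media differences are given as a description with no test, and the libraries of cells given buthionine sulfoximine (BSO) serve as a second set, though one from the same lines. By the rule that selected them (limma's adjusted p under 0.05 and the same direction in all 4 knockouts in media), 4 genes were higher (0.0279% of 14331 tested) and 3 were lower (0.0209%). Besides the members, the lower genes included TCEAL8. That fit took its spread from all 42 libraries, those with BSO included. Fitted on the media libraries alone, 7 genes met the rule, among them 4 of the 5 members, without FASTKD2. Just inside the rule, FASTKD2 had a largest adjusted p of 0.0325 over the 4 knockouts and KCTD11 one of 0.027. Just outside it, the values were 0.0697 for CNKSR2 and 0.07 for RGS14.

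HAP1 is a near-haploid human line derived from a chronic myeloid leukaemia culture. NEIL1, NEIL2 and NEIL3 are DNA glycosylases, the enzymes that remove oxidised bases as the opening step of base excision repair, and BSO blocks glutamate-cysteine ligase and with it glutathione synthesis. The 42 RNA-seq libraries came from wt cells and from lines labelled neil1, neil2, neil3 (each lacking 1 glycosylase) and neil123 (lacking all 3), in media alone or under BSO at 200 µM, a treatment of 48 h that started after 4 h. Each treatment had 7 wt, 3 neil1, 3 neil2, 4 neil3 and 4 neil123 libraries. Names fall into 2 sets: the lettered set (names ending in A or B) held 4 wt libraries per treatment and all of neil3 and neil123, and the unlettered set held 3 wt libraries per treatment and all of neil1 and neil2. Each knockout was therefore compared with wt of its own set. Libraries are grouped below into lines: 1.1, 1.3 and p1 for wt, 12 and 13 for neil1, 11 and 12 for neil2, and 1 and 2 for neil3 and for neil123. The labels call most of the libraries biological replicates but say neither how the knockouts were made nor whether numbered lines are separate clones or cultures, so the tests measure the spread between these libraries.

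The lettered libraries held between 26.8 M and 28.7 M reads in named genes and the unlettered ones between 29.9 M and 30.7 M. The RNA of the deleted genes checks the labels in part: with BSO, NEIL2 was lower in neil2 (log2 difference -1.06, limma adjusted p = 3.2e-07) and in neil123 (-0.996, limma adjusted p = 5.82e-08), and NEIL3 was lower in neil123 (-0.39, limma adjusted p = 0.0146). NEIL1 RNA in neil1 (0.24, limma adjusted p = 0.703) and NEIL3 RNA in neil3 (0.01, limma adjusted p = 0.9999) did not pass the test and so do not check those labels, and NEIL1 RNA was not lower in neil123 either (0.17, limma adjusted p = 0.569). BCR and ABL1, the fused genes of HAP1, were present in every library (705 to 1058 and 557 to 1316 normalized counts). With BSO both rose in neil123 (BCR 0.22, limma adjusted p = 0.0165; ABL1 0.61, limma adjusted p = 0.000289), and neither passed in the other knockouts. The blood cell genes PTPRC, GATA1 and CD33 stayed at or below 2.92, 2.07 and 8.91, whereas CD34 ranged from 1.02 to 716. The CD34 difference with BSO was 3.02 in neil1 (limma adjusted p = 0.248; DESeq2 called it, adjusted p = 0.0188), 1.94 in neil2, -0.49 in neil3 and 0.40 in neil123, none of which passed with limma. Of the epithelial genes, CDH1 ranged from 0 to 7.59 and EPCAM from 3.05 to 258. EPCAM fell with BSO in neil2 (-1.72, limma adjusted p = 0.0175) and neil123 (-1.96, limma adjusted p = 0.00497), and its values were 1.27 in neil1 and -1.01 in neil3, which did not pass. The summed level of the 4 epithelial markers (2 with an entry) was 27.0 to 105 in wt and 6.03 to 240 in the knockouts with BSO, and the part of these marker genes in the results below was not tested. SPI1, HBB, KRT5 and KRT20 were looked up but had no entry, so no value is given for them.

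The 5 genes act in different places. KCTD11 is an adaptor that brings substrates such as the deacetylase HDAC1 to CUL3 ubiquitin ligases and thereby restrains Hedgehog signalling. TMEM35A, also called NACHO, is a chaperone of the endoplasmic reticulum needed for assembling nicotinic acetylcholine receptors. NME3 is a nucleoside diphosphate kinase, a family that keeps nucleoside triphosphates in balance, and is found at mitochondria. FASTKD2 is a mitochondrial RNA-binding protein required for the large ribosomal RNA of mitochondria and for mitoribosome assembly. RTL8B belongs, with RTL8A and RTL8C, to a group of X-linked genes derived from the gag part of a retrotransposon.

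In the RefSeq annotation of GRCh38.p14, KCTD11 lies on chromosome 17 (7352162 to 7354944), TMEM35A on X (101078879 to 101096367), NME3 on 16 (1770320 to 1771543), FASTKD2 on 2 (206765606 to 206796189) and RTL8B on X (135020513 to 135022542). The 250 bases before the start of transcription are shown for the 4 members with a promoter sequence, because genes that move together invite a look at what their promoters share. They are credited to RefSeq, written 5' to 3' in the direction of transcription, and GGGCGG or its complement CCGCCC, the core of a GC box bound by SP factors, is in capitals. TMEM35A is named only.
KCTD11 (chr17:7351912-7352161, plus strand): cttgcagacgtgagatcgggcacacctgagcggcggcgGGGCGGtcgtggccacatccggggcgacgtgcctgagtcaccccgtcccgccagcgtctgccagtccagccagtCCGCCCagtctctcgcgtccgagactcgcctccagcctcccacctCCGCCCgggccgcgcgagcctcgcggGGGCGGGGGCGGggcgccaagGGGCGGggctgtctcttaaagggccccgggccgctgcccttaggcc
NME3 (chr16:1771544-1771793, minus strand): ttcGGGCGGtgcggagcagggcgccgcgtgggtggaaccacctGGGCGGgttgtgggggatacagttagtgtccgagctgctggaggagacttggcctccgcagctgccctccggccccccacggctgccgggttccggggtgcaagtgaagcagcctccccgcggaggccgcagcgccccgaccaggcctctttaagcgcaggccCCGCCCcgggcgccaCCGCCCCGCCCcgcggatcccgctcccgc
FASTKD2 (chr2:206765356-206765605, plus strand): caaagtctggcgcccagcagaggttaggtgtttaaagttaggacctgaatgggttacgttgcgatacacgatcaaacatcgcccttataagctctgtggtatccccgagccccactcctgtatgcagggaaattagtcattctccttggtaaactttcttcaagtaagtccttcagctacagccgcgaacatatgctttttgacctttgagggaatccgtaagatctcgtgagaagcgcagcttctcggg
RTL8B (chrX:135022543-135022792, minus strand): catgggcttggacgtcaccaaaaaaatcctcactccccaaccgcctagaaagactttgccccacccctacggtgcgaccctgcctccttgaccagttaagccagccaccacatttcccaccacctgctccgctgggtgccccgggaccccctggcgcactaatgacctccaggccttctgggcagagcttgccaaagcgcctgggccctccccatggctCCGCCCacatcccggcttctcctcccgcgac
The promoters of the higher members KCTD11 and NME3 were GC-rich (75.6% and 75.2% G or C) and held 31 and 28 CpG sites, against a median of 58% and 11 sites over 27305 promoters of the same length. Those of the lower members FASTKD2 and RTL8B held 12 CpG sites each, with 48.4% and 64% G or C. GGGCGG on either strand, overlapping matches counted, occurred 6 times before KCTD11, 5 times before NME3, once before RTL8B and not before FASTKD2, and 42.3% of all these promoters held it. CCAAT (33.0% of promoters) was searched on both strands and matched none of the 4 windows. These matches describe the letters in the window only.

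With BSO the 5 genes kept the directions they had in media in all 4 knockouts, 20 of 20 differences. Over all 14331 tested genes 67.2% of differences had the same sign in both treatments, and of the 4584 genes with 1 direction in all 4 knockouts in media 33.2% kept it in all 4 with BSO. The members were chosen for media differences that passed the test and these other genes were not, so the shares are no like-for-like background. Both treatments used the same lines, so a fixed difference between lines and an effect of the knockout cannot be told apart by this. In limma's test over 14331 genes, 1 of 5 members passed in neil1 (background 0.0488% of tested genes), 5 of 5 in neil2 (14.2%), 4 of 5 in neil3 (0.23%) and 5 of 5 in neil123 (6.87%). Only RTL8B passed in all 4 knockouts: it was the single gene called lower in all of them (0.00698%), and no gene was called higher in all of them (0%). With the replicate block by final letter 3 genes were called alike in all 4, RTL8B the single member among them, and with the line as a random block none was (RTL8B in neil1, limma adjusted p = 0.0536). At an unadjusted p under 0.05 limma gave 26 genes higher and 16 lower in all 4, with all 5 members among them. With the same rule on adjusted p, edgeR on the recovered reads gave 0 higher and 2 lower (1 member), and DESeq2 gave 5 higher and 3 lower (4 members). The mean over the 4 knockouts passed for 5 of 5 members (limma, background 4.33%). Among these members, FASTKD2 was admitted to the tested genes only by its wt level, which fixed its direction beforehand. These counts rest on few lines: without wt line 1.1 limma called 1 member in neil3. Without both libraries of neil2 line 11, 1 neil2 library was left, and 5 of 5 members kept their direction there (KCTD11 2.72). With 1 mean per line limma called 0 members in neil1, 0 in neil3 and 1 in neil123. In neil2 TMEM35A alone lost its call under that setting (0.81, limma adjusted p = 0.0601).

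Ranges told the same for every member. In each of the 20 comparisons with BSO, every knockout library lay outside the range of the wt libraries of its set. Such separation in all 4 knockouts occurred for 11 tested genes on the higher side (0.0768%), 3 of them members, and for 12 on the lower side (0.0837%), 2 of them members. The plot of levels by library shows these gaps. FASTKD2 is among the lower members, and only its wt level admitted it to the tested genes.

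**Figure D1:**
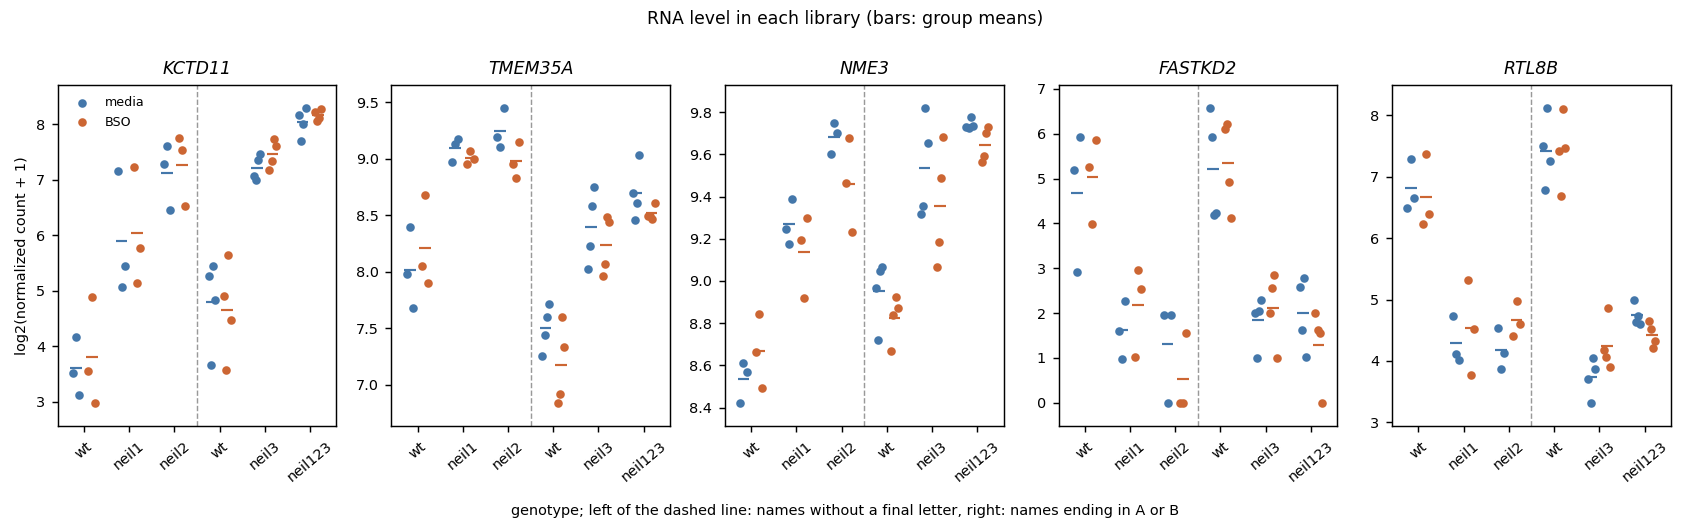
RNA level of each member as log2(normalized count + 1), with its own vertical scale per panel, for every library (points) and group mean of the log2 values (bars), in media (blue) and with BSO (orange), by genotype. Left of the dashed line are the unlettered and right of it the lettered libraries. KCTD11, TMEM35A and NME3 lie above wt of the same set in every knockout library, and FASTKD2 and RTL8B below it.

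KCTD11 showed the widest rise. In media the unlettered libraries had normalized counts of 10.6, 16.9 and 7.78 in wt, 142, 32.8 and 42.7 in neil1 and 156, 194 and 87.04 in neil2. The lettered ones had 37.7, 11.8, 42.5 and 27.6 in wt, 133, 127, 163 and 177 in neil3 and 288, 207, 256 and 311 in neil123. Here and below, libraries come in the order of their names: 1.1, 1.3 and p1 for unlettered wt, rep12, rep13.1 and rep13.2 for neil1, rep11.1, rep11.2 and rep12 for neil2, 1.1A, 1.1B, 1.3A and 1.3B for lettered wt, and 1A, 1B, 2A and 2B for neil3 and neil123. In neil1 the single library of line 12 was high and both of line 13 were low, yet all 3 lay above wt of their set. With BSO the unlettered values were 10.8, 28.7 and 6.93 in wt, 149, 34.2 and 53.4 in neil1 and 215, 185 and 91.6 in neil2. In the lettered set they were 29.2, 10.99, 49.3 and 21.4 in wt, 144, 162, 213 and 195 in neil3 and 298, 265, 275 and 309.6 in neil123. The neil123 libraries were again the highest, and no knockout group overlapped wt of its set.

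With BSO the mean of KCTD11 was 164 ± 64.4 (SD, n = 3) in neil2 and 78.8 ± 61.4 (n = 3) in neil1, against 15.5 ± 11.6 in wt (n = 3). In the lettered set it was 287 ± 20.5 in neil123 and 178 ± 31.3 in neil3, against 27.7 ± 16.2 in wt (n = 4 each). These are ratios of means of 10.6, 5.08, 10.4 and 6.44. On the log2(value + 1) scale KCTD11 rose by 3.46 ± 0.52 (SE) in neil2 (limma adjusted p = 0.00106), by 2.81 ± 0.45 in neil3 (limma adjusted p = 0.00392) and by 3.51 ± 0.45 in neil123 (limma adjusted p = 8.59e-05). In neil1 the difference was 2.23 ± 0.52 and did not pass (limma adjusted p = 0.112). Without line 13 the neil1 difference was 3.41, a value that rests on 1 neil1 library, rep12, the highest of neil1. In neil3 the call was lost without wt line 1.1 (2.40, limma adjusted p = 0.21). In bulk RNA, more cells with the transcript and more transcript per cell cannot be told apart, here and for the other members.

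The partners of KCTD11 did not follow it. Of 20 listed genes of CUL3 complexes and the Hedgehog pathway, 18 were tested: 2 fell in neil2 (HHIP, which binds Hedgehog ligands, -0.70; SMO, the pathway's signal transducer, -0.22; 14.2% of all genes passed there) and none passed in the other knockouts. At an unadjusted p under 0.05, limma gave 1 in neil1, 0 in neil3 and 1 in neil123, and edgeR and DESeq2 called none in those 3. The list's median difference was -0.01, -0.02, 0.00 and 0.07 in neil1, neil2, neil3 and neil123, beside 0.00, 0.01, 0.00 and 0.01 over all tested genes. KCTD6 and KCTD21, the closest relatives of KCTD11, differed by -0.05 to 0.16 and by -0.10 to 0.32, and neither passed in any knockout. Per kb of the longest annotated transcript, the median wt level in media was 5.55 for KCTD11, 168 for KCTD6 and 66.4 for KCTD21.

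TMEM35A was roughly doubled. In media its unlettered values were 251, 335 and 204 in wt, 502, 558 and 577 in neil1 and 585, 549.8 and 695 in neil2. Its lettered values were 152, 172, 193 and 209 in wt, 259.5, 298, 381 and 430.4 in neil3 and 413, 350.0, 389 and 522 in neil123. Levels differed between the sets, with unlettered wt above lettered wt, so that lettered knockouts overlapped unlettered wt. Within a set they did not overlap. With BSO the unlettered set had 264, 408 and 238 in wt, 496, 534 and 509.5 in neil1 and 495, 454 and 567 in neil2. The lettered set had 114, 119.8, 192 and 160.3 in wt, 248, 267, 358 and 345 in neil3 and 359, 360.1, 352 and 390.0 in neil123. The wt library 1.3 was the highest of wt and came nearest to a knockout library, and neil3 line 1 was lower than neil3 line 2.

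Means with BSO were 513 ± 19.5 in neil1 and 506 ± 57.3 in neil2 against 304 ± 91.8 in wt (SD, n = 3 each), and 304 ± 55.1 in neil3 and 365 ± 16.9 in neil123 against 146 ± 36.9 in wt (n = 4 each). TMEM35A rose by 0.77 ± 0.19 (SE, log2) in neil2 (limma adjusted p = 0.0148), by 1.07 ± 0.17 in neil3 (limma adjusted p = 0.0038) and by 1.34 ± 0.17 in neil123 (limma adjusted p = 7.17e-05). The neil1 difference of 0.80 ± 0.19 did not pass (limma adjusted p = 0.142). It passed without wt line 1.3 (1.03, limma adjusted p = 0.0133). The call in neil2 was lost without wt library 1.1 (0.69, limma adjusted p = 0.0596) or p1 (0.61, limma adjusted p = 0.0866), and that in neil3 without wt line 1.1 (0.77, limma adjusted p = 0.252) or without the term for the name set (0.62, limma adjusted p = 0.342).

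Among all genes tested with BSO, 14.2% passed in neil2. Of 18 listed nicotinic receptor subunits and their chaperones, 7 were tested, and the receptor subunit CHRNA3 alone passed, lower in neil2 (-0.78, limma adjusted p = 0.0152). In neil1, neil3 and neil123 none passed with limma, edgeR or DESeq2, and 2, 0 and 2 did at limma's unadjusted p under 0.05. The median difference of these 7 was -0.06, -0.22, 0.13 and -0.21 in neil1, neil2, neil3 and neil123, beside 0.00, 0.01, 0.00 and 0.01 over all genes. TMEM35B, the relative of TMEM35A, had a median wt level in media of 1.097 per kb, against 93.0 per kb for TMEM35A.

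NME3 was moderately higher in the knockouts. In media the unlettered set had 342, 389.7 and 378 in wt, 605, 577 and 669 in neil1 and 776, 858 and 831 in neil2. The lettered set had 499, 421, 528 and 535 in wt, 638, 654, 902 and 805 in neil3 and 848, 845, 875 and 851 in neil123. In media all 14 knockout libraries lay above all 7 wt libraries, whatever the set. With BSO the unlettered libraries had 404, 459 and 359.5 in wt, 585, 483 and 629 in neil1 and 706, 817 and 601 in neil2. The lettered ones had 405, 456, 484 and 467 in wt, 534, 582, 718 and 821 in neil3 and 756, 770.3, 830.5 and 848 in neil123. The neil1 library rep13.1 was the lowest knockout library, and it overlapped lettered wt but not wt of its own set.

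With BSO the means were 566 ± 74.7 in neil1 and 708 ± 108 in neil2 against 407 ± 49.8 in wt (SD, n = 3 each), and 664 ± 130.5 in neil3 and 801 ± 44.96 in neil123 against 453 ± 34.0 in wt (n = 4 each). NME3 rose by 0.79 ± 0.14 (SE, log2) in neil2 (limma adjusted p = 0.00287) and by 0.82 ± 0.12 in neil123 (limma adjusted p = 0.000403). The differences of 0.47 ± 0.14 in neil1 (limma adjusted p = 0.271) and 0.53 ± 0.12 in neil3 (limma adjusted p = 0.0858) did not pass. The latter passed without neil3 line 1 (0.76, limma adjusted p = 0.00379) and, with the same value of 0.53, without neil2 library rep12 (limma adjusted p = 0.0463).

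Among all genes tested with BSO, 14.2% passed in neil2. Of 26 listed genes of the NME family and of nucleotide supply, 24 were tested. In neil2, 1 rose and 1 fell, the latter being the mitochondrial kinase CMPK2 (-1.47, limma adjusted p = 0.0167), and none passed in the other knockouts (2, 0 and 3 at limma's unadjusted p under 0.05 in neil1, neil3 and neil123; none with edgeR, and 2 with DESeq2 in neil123). The kinases NME1, NME2 and NME4 differed by -0.19 to 0.04, -0.03 to 0.12 and -0.22 to 0.07 and did not pass in any knockout. The gene of NME3 overlaps the end of MAPK8IP3 by 0.031 kb, and the strand setting of the counting is not given in the sources used here. MAPK8IP3 itself differed by -0.24 to 0.17 and did not pass.

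**Figure D2:**
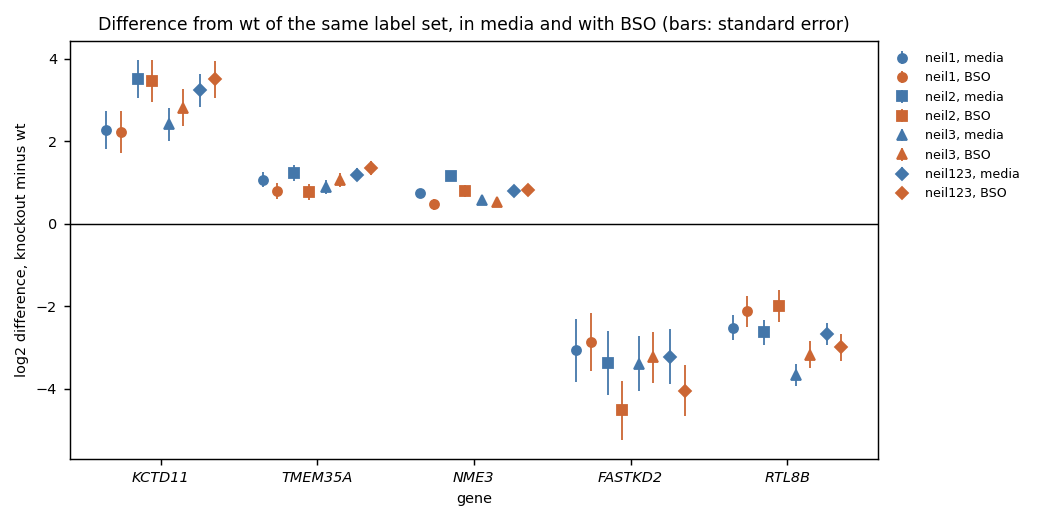
Log2 difference of each knockout from wt of its own set (vertical axis, with standard error) for the 5 members, in media (blue) and with BSO (orange), with 1 symbol per knockout. All values of KCTD11, TMEM35A and NME3 lie above 0 and all values of FASTKD2 and RTL8B below it, and the FASTKD2 values carry the largest errors.

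FASTKD2 was low in wt and close to 0 in the knockouts. In media its unlettered values were 35.5, 6.59 and 60.3 in wt, 2.04, 0.96 and 3.8 in neil1 and 2.91, 0 and 2.9 in neil2. Its lettered values were 93.7, 59.8, 17.2 and 17.7 in wt, 3.02, 1.0, 3.13 and 3.89 in neil3 and 4.98, 2.07, 5.92 and 1.02 in neil123. The wt library 1.3 was the lowest of wt, only just above the knockouts of its set. With BSO the unlettered values were 37.4, 14.9 and 57.5 in wt, 1.03, 6.83 and 4.77 in neil1 and 0, 0 and 1.95 in neil2. The lettered values were 67.7, 73.9, 29.2 and 16.5 in wt, 3.02, 4.9, 6.22 and 0.99 in neil3 and 3.0, 2.09, 1.94 and 0 in neil123. No knockout library reached 7 counts, and none overlapped wt of the same treatment.

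The summed reads show how little material lies behind the knockout values. With BSO, 3 neil1 libraries held 13 reads and 3 neil2 libraries 2, against 111 in the 3 wt libraries of their set, and neil3 and neil123 held 15 and 7 against 185 in 4 wt libraries. Relative to reads in named genes, wt was 8.53 times neil1 (exact 95% interval 4.79 to 16.5), 55.5 times neil2 (15.0 to 464), 12.3 times neil3 (7.29 to 22.5) and 26.8 times neil123 (12.8 to 67.6). These intervals cover counting error only. FASTKD2 passed the filter (a mean of at least 10 over all libraries) only through wt. With BSO its knockout group means were 0.65 to 4.21, against 36.6 and 46.8 in wt. A gene admitted this way is bound to be lower in the knockouts. The tests and ranges of FASTKD2 are therefore no separate support for its direction. FASTKD2 fell by 4.52 ± 0.71 (SE, log2) in neil2 (limma adjusted p = 0.00156), by 3.24 ± 0.62 in neil3 (limma adjusted p = 0.0208) and by 4.05 ± 0.62 in neil123 (limma adjusted p = 0.000454). The neil1 difference of -2.87 ± 0.71 did not pass (limma adjusted p = 0.143). Without wt line 1.1, the value was -2.42 in neil3 (limma adjusted p = 0.9999) and -3.23 in neil123 (limma adjusted p = 0.0506). The neil3 call was also lost without wt library 1.1A (limma adjusted p = 0.128) or 1.1B (0.103), without neil3 library 1A (0.0646) or 2B (0.0938), and with a pseudocount of 0.5 (limma adjusted p = 0.0633).

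Its relatives stayed near wt. FASTK, FASTKD1, TBRG4 and FASTKD5, other mitochondrial RNA-binding proteins of the family, differed by -0.17 to 0.10 in the 4 knockouts and did not pass, and FASTKD3 rose in neil2 (0.39, limma adjusted p = 0.00629). Per kb of the longest transcript, FASTKD2 had a median wt level in media of 7.10, whereas FASTKD3 had 219, FASTKD1 487, FASTKD5 651, FASTK 813 and TBRG4 1209. Over all tested genes, 14.2% passed in neil2 and 6.87% in neil123. Of 21 tested genes of this family and of 16S ribosomal RNA handling, 2 rose in neil2 (FASTKD3; MTERF3, a mitochondrial transcription regulator, 0.30), 1 rose in neil123 (RCC1L, a mitoribosome factor, 0.19), and none fell. In neil1 and neil3 none passed with limma, edgeR or DESeq2, and 3 and 0 did at limma's unadjusted p under 0.05. Of the 13 tested mitochondrially encoded messenger RNAs none passed in any knockout with limma, edgeR or DESeq2, and 0, 2, 0 and 5 did at limma's unadjusted p under 0.05 in neil1, neil2, neil3 and neil123. Their median differences were 0.12, 0.28, 0.00 and -0.31, beside 0.00, 0.01, 0.00 and 0.01 over all genes.

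RTL8B was lower in every knockout library than in every wt library. In media the unlettered libraries held 89.2, 155 and 100.1 in wt, 25.5, 16.4 and 15.2 in neil1 and 22.3, 13.7 and 16.4 in neil2. The lettered libraries held 180.3, 109, 275 and 152 in wt, 12.1, 8.99, 15.6 and 13.6 in neil3 and 30.9, 23.8, 25.7 and 23.4 in neil123. All 14 knockout libraries were below all 7 wt libraries. With BSO the unlettered libraries had 73.7, 164 and 83.2 in wt, 38.98, 12.7 and 21.95 in neil1 and 20.1, 30.6 and 23.4 in neil2. The lettered libraries had 169.8, 102, 273 and 177 in wt, 17.1, 15.7, 27.98 and 13.9 in neil3 and 24.03, 21.9, 17.5 and 19.1 in neil123. The separation of all 14 from all 7 held with BSO too, where the highest knockout library was neil1 rep12 at 39.0 and the lowest wt library 1.1 at 73.7.

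Means with BSO were 24.5 ± 13.3 in neil1 and 24.7 ± 5.36 in neil2 against 107 ± 49.3 in wt (SD, n = 3 each), and 18.7 ± 6.34 in neil3 and 20.6 ± 2.91 in neil123 against 180.3 ± 70.3 in wt (n = 4 each), which put wt 4.35, 4.32, 9.65 and 8.74 times above the knockouts. RTL8B fell by 2.12 ± 0.38 (SE, log2) in neil1 (limma adjusted p = 0.0446), by 1.997 ± 0.38 in neil2 (limma adjusted p = 0.00394), by 3.17 ± 0.33 in neil3 (limma adjusted p = 4.13e-05) and by 2.99 ± 0.33 in neil123 (limma adjusted p = 2.03e-05). The neil1 call was marginal: it was lost in 16 of 21 fits that each left out 1 library (limma adjusted p 0.00308 to 0.167 over the 21), while the value stayed between -2.51 and -1.74. Without neil1 line 13, which left 1 neil1 library, the value was -1.34.

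RTL8A and RTL8C lie 28.4 and 9.81 kb from RTL8B on X. Of the 50-base stretches of the longest RTL8B transcript in GENCODE v29, 9.31% occur in transcripts of other genes (108 in RTL8A and 83 in RTL8C of 1977), and 0.415% of its 100-base stretches do, so reads could be split among them and the RTL8B values are uncertain to that extent. The other 4 members shared no 50-base stretch with another gene. RTL8C, which was abundant (3666 to 5861 over all 42 libraries), differed by -0.13 to 0.13 with BSO and did not pass. RTL8A differed by 0.50, 0.84, -1.37 and 0.74 in neil1, neil2, neil3 and neil123 and did not pass in any. Its test used 1 spread for all groups, which took in the 2 unlike neil3 lines described next. In both treatments every RTL8A value of neil1, neil2 and neil123 lay above wt of its set. The ratios of means with BSO were 1.43, 1.87 and 1.70, while neil3 overlapped wt.

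The RTL8A difference of -1.37 in neil3 joins 2 unlike lines. In media, line 1 held 3357 and 3619 and line 2 held 122 and 76.8, and with BSO line 1 held 3832 and 3882 and line 2 held 159 and 97.2. Wild type ranged from 1255 to 1941 over all 14 libraries, so line 1 was above wt and line 2 below it. RTL8B was low in both lines (9.0 to 17.1 in line 1 and 13.6 to 28.0 in line 2 over both treatments). Over all genes tested with BSO, 6.87% passed in neil123 and 14.2% in neil2. Of 8 tested RTL relatives, the retrotransposon-derived PEG10 rose in neil123 (0.63, limma adjusted p = 0.0108) and LDOC1 fell in neil2 (-0.25, limma adjusted p = 0.0458; edgeR called none there). In neil1 and neil3 none passed with limma, edgeR or DESeq2, and 1 and 0 did at limma's unadjusted p under 0.05.

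**Figure D3:**
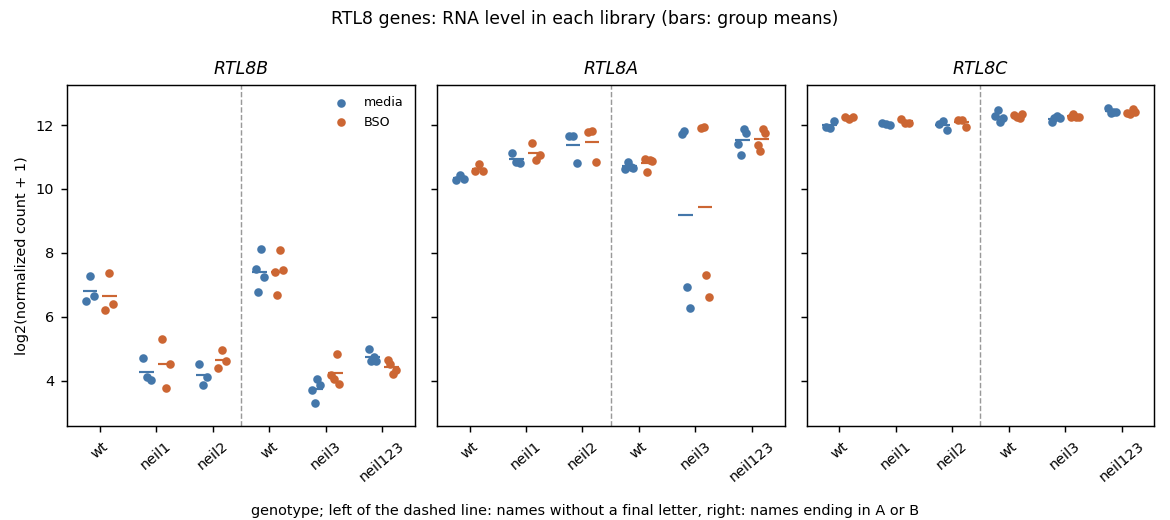
RNA level of RTL8B, RTL8A and RTL8C as log2(normalized count + 1) on a shared axis, for every library (points) and group mean of the log2 values (bars), in media (blue) and with BSO (orange). RTL8B is lower in every knockout library, RTL8A falls to 76.8 to 159 counts in neil3 line 2 alone, and RTL8C stays between 3666 and 5861.

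Knockouts of 1 set were set against each other to see whether the changes differed in size. With limma none of the 5 members passed in neil2 against neil1 (background 2.46%) or in neil123 against neil3 (background 6.9%), and edgeR and DESeq2 called none either. At an unadjusted p under 0.05, 3 members differed between neil2 and neil1: KCTD11 (1.23, 95% interval 0.15 to 2.32), NME3 (0.32, 0.02 to 0.62) and FASTKD2 (-1.65, -3.14 to -0.16). Between neil123 and neil3, NME3 alone did (0.29, 0.03 to 0.55), and it passed without neil3 line 2 (0.52, limma adjusted p = 0.0139). The intervals of the others in neil123 against neil3 reached from -0.24 to 1.63 for KCTD11, from -0.07 to 0.63 for TMEM35A, from -2.10 to 0.48 for FASTKD2 and from -0.51 to 0.87 for RTL8B. In neil2 against neil1 they reached from -0.43 to 0.38 for TMEM35A and from -0.67 to 0.92 for RTL8B.

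The change with BSO itself is given as a description because it shares the media libraries with the rule. Over 21 pairs of libraries with the same name, the mean log2 difference of BSO minus media was 0.12 for KCTD11, -0.15 for TMEM35A, -0.11 for NME3, -0.04 for FASTKD2 and 0.12 for RTL8B. TMEM35A and NME3 were each lower with BSO in 17 of 21 pairs, and KCTD11 was higher in 15. Among the 7 wt pairs, each of these genes was higher in 3 and lower in 4. How often all tested genes keep 1 direction over the pairs was not counted. The FASTKD2 mean joins genotypes that differed in sign (0.56 in neil1, -0.79 in neil2, 0.27 in neil3 and -0.70 in neil123), and its pairs ranged from -1.97 to 2.0 at read counts near 0. For RTL8B the pairs also went both ways by genotype: it was higher in 4 of 4 neil3 pairs (mean 0.51) and lower in 4 of 4 neil123 pairs (mean -0.32), a difference between genotypes that was not tested. Against wt, 12 of the 20 knockout differences were smaller in size with BSO than in media. The neil2 difference of NME3 was 1.15 in media and 0.79 with BSO, and that of TMEM35A was 1.23 in media and 0.77 with BSO. FASTKD2 showed the largest shifts, growing in size from -3.37 to -4.52 in neil2 and from -3.23 to -4.05 in neil123. It shrank from -3.07 to -2.87 in neil1 and from -3.39 to -3.24 in neil3. The neil2 shift of FASTKD2 rests on 6 summed knockout reads in media and 2 with BSO, and the neil123 shift on 14 and 7. The differences of the other members also grew in size in neil123.

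Wild type lines differed in the same genes. Line 1.3 was compared with line 1.1 in 6 matched pairs of libraries, as a description. These pairs repeat the same 2 lines over treatments and name sets. The share of all tested genes that kept 1 direction in all 6 pairs was not counted. KCTD11 was higher in line 1.3 in 6 of 6 pairs (mean log2 difference 0.82), TMEM35A in 6 of 6 (0.47) and NME3 in 6 of 6 (0.18), and FASTKD2 was lower in 6 of 6 (-1.82). For these 4 genes line 1.3 thus lay on the side of the knockouts. RTL8B went the other way, higher in line 1.3 in 6 of 6 pairs (0.75), which is away from the knockouts.

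**Figure D4:**
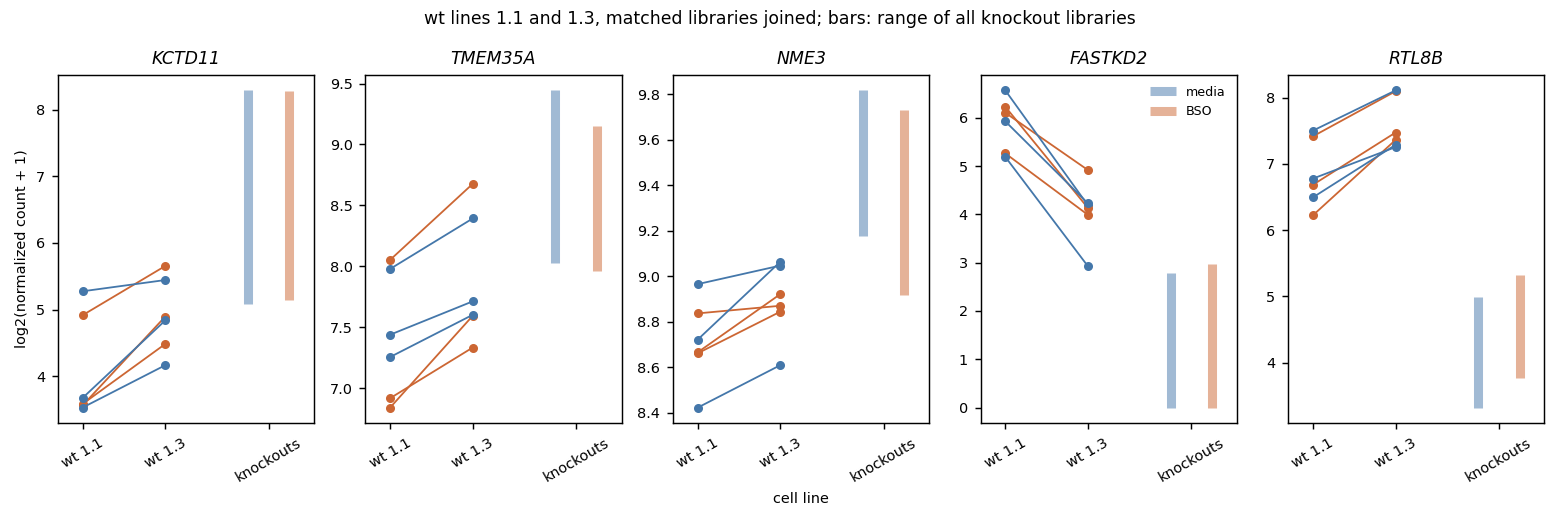
RNA level of each member as log2(normalized count + 1), with its own vertical scale per panel, in wt lines 1.1 and 1.3 (points, with matched libraries joined by lines) beside the range of all knockout libraries (thick bars), in media (blue) and with BSO (orange). In every pair KCTD11, TMEM35A, NME3 and RTL8B are higher and FASTKD2 is lower in line 1.3.

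Neighbouring genes were compared next. Among the 30 nearest tested genes, 3 on each side of each member, limma called 0 in neil1, 3 higher in neil2, 0 in neil3 and 4 higher in neil123, and none lower, beside 14.2% of all tested genes in neil2 and 6.87% in neil123. The counts at limma's unadjusted p under 0.05 were 2, 8, 1 and 9, those of edgeR 0, 3, 0 and 4 and those of DESeq2 0, 6, 0 and 4. The largest called difference among these neighbours was that of ACAP1, a GTPase-activating protein of endosomal trafficking, which ends 0.685 kb before KCTD11. It rose in neil2 (2.17, limma adjusted p = 0.0192) and neil123 (2.29, limma adjusted p = 0.00956), and its difference was 2.04 in neil3 (limma adjusted p = 0.126) and 0.24 in neil1 (limma adjusted p = 0.934). ACAP1 was low throughout, with means of 20.3 in neil123, 16.3 in neil3 and 4.29 in wt of their set with BSO. Whether reads running beyond the annotated end of ACAP1 were counted for KCTD11 was not tested. On the other side of KCTD11, TNK1 differed by -0.25 to 0.77 and did not pass.

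Beside TMEM35A, CENPI, a kinetochore gene that begins 1.84 kb away, rose slightly in neil2 (0.26, limma adjusted p = 0.0309), and TRMT2B on the other side differed by -0.14 to 0.05 and did not pass. MRPS34, a mitoribosome gene 0.352 kb from NME3, differed by -0.11 to -0.03 and did not pass. The neighbours of FASTKD2, ADAM23 and KLF7, differed by -0.10 to 0.21 and by -0.04 to 0.22 and did not pass. Next to RTL8B, SMIM10 rose in neil2 (0.44, limma adjusted p = 0.00248) and neil123 (0.23, limma adjusted p = 0.0405), opposite in direction to RTL8B. SMIM10L2B, 72.4 kb away, rose in neil123 (1.08, limma adjusted p = 0.00737).

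**Figure D5:**
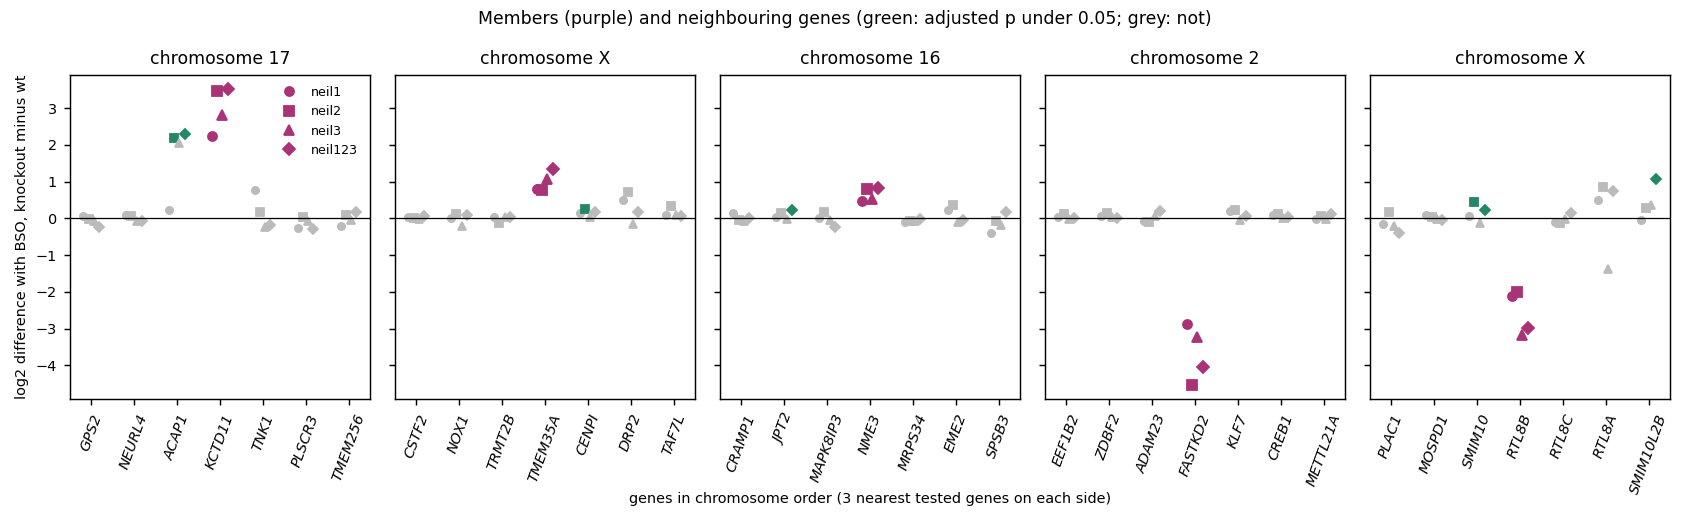
Log2 difference of each knockout from wt with BSO (vertical axis) for each member (purple) and its 3 nearest tested genes on each side in chromosome order, with 1 symbol per knockout; green symbols have an adjusted p under 0.05. Apart from ACAP1 beside KCTD11, RTL8A and SMIM10L2B, neighbours lie within 0.8 of 0.

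The genes most like each member were sought by Pearson's r of log2(value + 1) over the 42 libraries after the mean of each set was subtracted. These r share libraries, lines and the split between wt and knockouts, and are a description. For KCTD11 they were RGS14 (0.94), ALPL (0.92) and SH3RF2 (0.91), and the least like was FASTKD2 (-0.89). TMEM35A was most like NME3 (0.90), RGS14 (0.89) and ALPL (0.88) and least like TCEAL8 (-0.90). NME3 was most like RGS14 (0.92), ALPL (0.91) and KCTD11 (0.90) and again least like TCEAL8 (-0.91). For FASTKD2 the genes were TCEAL8 (0.85), CNKSR2 (0.83) and FRMD4B (0.80), with KCTD11 the least like. RTL8B was most like TCEAL8 (0.85), VSNL1 (0.85) and CHRAC1 (0.84).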

How the data were processed

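RNA levels came from 1 table for 42 HAP1 libraries in 10 groups. Its values are normalized signal as deposited by the authors. Per the submitters' processing notes, the tools were featureCounts, HISAT2, SAMtools, Trim Galore and DESeq2 and the build was GRCh38 (hg38), with no order, versions or strand setting given. Dividing by each column's step gave whole reads for 100% of values (tolerance 1e-06). Entries without a symbol, 0.868% to 1.25% of a library's reads, were left out.

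The 14331 named genes averaging at least 10 were tested in the 21 BSO libraries using limma 3.58.1 (R 4.3.3, intensity trend) on log2(value + 1), which understates changes of low genes, with terms for genotype and name set. A call is a Benjamini-Hochberg adjusted p under 0.05. The fit was tested on simulated data. These were drawn independently for each library, with no effect of line, letter or name set. They therefore do not check the p-values where libraries share lines or letters. The members and lists were chosen with earlier results of these data known. Named are the 5 members, NEIL1 to NEIL3, closest relatives, up to 4 genes per list that passed in 2 or more knockouts, nearest neighbours (RefSeq positions, where the rule foresaw the table's), and the 3 most and 1 least similar genes. List genes that passed in 1 knockout, ACAP1's levels, SMIM10L2B, the rule on media libraries alone and the fits without whole lines were chosen after seeing the data. Alternatives were edgeR 4.0.16 and DESeq2 1.42.0 on recovered reads, other scalings and filters, the final letter as a replicate block, and leaving out libraries. Differences between A and B libraries correlated in 15 of 15 pairs of lines (r = 0.118 to 0.421), so in that alternative the letters were taken to pair lettered samples. The main fit held no term for the letter, so the p-values given above do not use this pairing unless the replicate block is named. Some genes that the naming rule covers are not reported here.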

Additional observations from a re-analysis of the deposited data

How the results depend on the processing

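Against wt, 896 of 896 recomputed member differences (45 settings, including 21 libraries and 10 lines left out in turn) kept their direction, 55 of them lost their call and 17 gained one, and the mean over the 4 knockouts stayed past the threshold in 219 of 219. In neil2 against neil1, TMEM35A turned to 0.029 and RTL8B to -0.084 with 1 mean per line, and with a library or line left out TMEM35A ranged from -0.112 to 0.146 (reversed at 0.003, 0.023, 0.048 and 0.146) and RTL8B from -0.657 to 0.516 (reversed at -0.657, -0.257 and -0.034), none past the threshold. Leaving out whole lines was chosen after seeing the data. The cause of the changes below was not tested.

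The counts of genes called in neil1, neil2, neil3, neil123, neil2 against neil1, neil123 against neil3, the mean and alike in all 4 (7, 2037, 33, 985, 353, 989, 620 and 1) and of members called moved as follows. With DESeq2, neil1 had 104 genes and 4 members, neil3 95, neil2 against neil1 661, the mean 1114, and alike 8 genes with 4 members. With edgeR, neil1 had 11 and alike 2. With the fit of all 42 libraries, neil1 had 37 genes and 4 members, neil3 69, neil2 against neil1 533, and alike 6 genes with 4 members. The media part of that same fit chose the members, so its counts of members are not separate support. With the replicate block by final letter, neil1 had 27, the mean 944 and alike 3, and no other count moved by over 1.5 times. Without the name-set term, neil1 had 37 genes and 3 members, neil2 3928, neil3 81, neil2 against neil1 129, neil123 against neil3 613, the mean 314, and alike 3 genes with 2 members. With the own set only, neil1 had 2 genes and 0 members, neil2 529, neil3 77, neil2 against neil1 29, and alike 0 genes and 0 members. With 1 mean per line, which leaves fewer samples, neil1 had 0 genes and 0 members, neil2 1109, neil3 1 gene and 0 members, neil123 31 genes and 1 member, neil2 against neil1 4, neil123 against neil3 38, the mean 46, and alike 0 genes and 0 members. With the line as a random block, neil1 had 1 gene and 0 members, neil2 against neil1 164, the mean 373, and alike 0 genes and 0 members. Neil1 had 3 genes and 0 members with a mean of 50 or more, 4 genes and 0 members without a filter, and 3 genes and 0 members with equal totals, and alike was 0 genes and 0 members under each of these. Alike was 2 with a pseudocount of 5.

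With a library or line left out, genes called ranged from 1 to 119 in neil1, 84 to 2637 in neil2, 10 to 165 in neil3, 168 to 1235 in neil123, 46 to 1196 in neil2 against neil1, 468 to 1270 in neil123 against neil3, 68 to 1343 for the mean and 0 to 5 alike. The lowest counts for neil3, neil123 and the mean came without wt line 1.1. That for neil2 came without neil2 line 11, a fit with 1 neil2 library. The highest came without neil1 library rep12 for neil1, neil2 library rep12 for neil2 and the mean, and neil3 line 2 for neil3. Members called ranged from 0 to 1 in neil1, 0 to 5 in neil2, 1 to 5 in neil3, 0 to 1 in neil123 against neil3 and 0 to 1 alike. By Spearman's rho, 2 of the 3 genes most like each member stayed among the top 3, and 1 for TMEM35A. Depth limits FASTKD2 most, with 2 to 15 reads summed over the libraries of a knockout group.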
